A study of Mus musculus with 8 samples.

Results

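The genes described here are the protein-coding members of 8 solute carrier families that move amino acids, sugars and monocarboxylates across membranes, followed through the last step of oocyte maturation. They were chosen by symbol alone, as those starting with Slc1a, Slc2a, Slc6a, Slc7a, Slc16a, Slc36a, Slc38a or Slc43a. The rule took 88 of the 55385 genes of the deposited table, of which 21897 were protein-coding. One of the 88, Slc7a6os, is named for its place beside Slc7a6 and is not a carrier. Of the 88 genes, 53 passed the filter on low counts, 24 had reads but did not pass and 11 had no read in any library.

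Oocytes were grown in culture from mouse XX embryonic stem cells of mixed C57BL/6 x 129/SvJ background and were taken at the germinal vesicle stage (GV, fully grown and held in prophase of meiosis I) on day 11 of follicle growth, or as metaphase II eggs (MII) after 16 h of maturation with gonadotrophins. There were 4 groups of 2 libraries, which the submitters call biological duplicates. They held GV and MII oocytes of a line labelled sex converted XX (code name N2DsRed4XO63R2), in a study of oocytes derived from male mice, and GV and MII oocytes of a line labelled native XX (H18). Both lines carried the Blimp1-mVenus and Stella-ECFP reporters, and all oocytes grew in reconstituted ovaries with somatic cells of female gonads of embryonic day 12.5, so no group holds oocytes of an intact animal. Each condition rests on 1 cell line, and a difference between the kinds of line cannot be told apart from a difference between single clones. A GV library pooled 31 to 158 oocytes and an MII library 35 to 58, selected as positive for Stella-ECFP. Cumulus cells were stripped by enzyme and capillary from GV oocytes and by hyaluronidase from MII eggs.

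A growing mouse oocyte is coupled by gap junctions to cumulus cells, which take up several amino acids and break down glucose for it, while the oocyte takes up pyruvate and other amino acids through carriers of its own. Many Slc7 carriers work only as a pair with a heavy chain, Slc3a2 or Slc3a1, and several monocarboxylate carriers need basigin (Bsg) or embigin (Emb). Fully grown oocytes do not transcribe, so that during maturation mRNAs are kept, degraded or given longer poly(A) tails. A U-rich cytoplasmic polyadenylation element near the end of an mRNA is bound by CPEB proteins and is known to direct that lengthening.

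Library totals were 10306471 to 14999003 reads. The transporter genes took 0.145% to 0.193% of the reads of a GV library and 0.272% to 0.296% of those of an MII library. Levels are CPM, read counts brought to a common library size with factors from the trimmed mean of M-values (TMM). Their sum over the 88 genes, Slc7a6os included, was 1095 to 1354 CPM at GV and 3718 to 4080 CPM at MII. The 12 oocyte markers, among them Zp3 and Gdf9, had reads in every library. Granulosa and cumulus markers summed to 57.1 to 79.4 CPM at GV and 116 to 139 CPM at MII over 16 genes, mostly through Cyp19a1, Nr5a2 and Kitl, with Cd44 at 0 in all libraries and Amh, Foxl2, Fshr and Lhcgr at 0 to 1.43 CPM. The median of these 16 genes was 2.77 CPM in native MII replicate 1 and 0.164 to 0.694 CPM in the other libraries. Stromal markers summed to 1.34 to 2.21 CPM at GV over 10 genes and to 13.7 and 3.61 CPM in the sex-converted and 19.5 and 6.83 CPM in the native MII libraries. Vim, the vimentin gene, led that sum in the 4 MII libraries at 7.34, 1.43, 16.7 and 2.43 CPM in the same order, and Col1a2 and Lum had no read. Endothelial and blood markers were at 0 or under 3 CPM except Pecam1, which had 58.9 to 88.4 CPM at GV and 189.7 to 275 CPM at MII. The part of these marker differences in the results below was not tested unless a value is given.

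Most transporter mRNAs that changed during maturation did so in both lines, and with TMM scaling more rose than fell. In the native line 21 of the 53 tested genes were higher at MII than at GV, 12 were lower and 20 were not called, at an adjusted p under 0.05 in edgeR's quasi-likelihood test over all 14929 genes tested. Over all those genes 29.6% were called higher and 35.7% lower, 65.2% in all. They include non-coding genes, and over the 12552 protein-coding genes tested 31.6% were higher and 36.8% lower. In the sex-converted line 19 were higher, 13 lower and 21 not called, where 29.3% of all genes tested were called higher and 36.2% lower, 65.5% in all. Among protein-coding genes these shares were 31.2% and 37.4%. Counting only whether the libraries of the stages overlap, 25 of the 53 genes (47.2%) were higher at MII in both native libraries and 17 (32.1%) lower. The shares of all genes were 37.4% and 46.1%. In the sex-converted line 21 (39.6%) were higher and 18 (34.0%) lower, beside 37.6% and 47.2%. The median log2 fold change of the 53 genes was 0.16 in the native line, beside -0.31 over all genes tested, and -0.03 in the sex-converted line, beside -0.35. For the protein-coding genes tested it was -0.25 and -0.32 in the native and sex-converted lines. These counts include Slc7a6os. Without it 20 of 52 genes were higher and 12 lower in the native line, and 18 and 13 in the sex-converted line. The medians were then 0.15 and -0.04. By identity, 19 genes were higher in both lines, 12 lower in both, Slc2a1 and Slc38a4 higher in the native line alone, Slc6a13 lower in the sex-converted line alone, and 19 called in neither. No gene was called in opposite directions. The share of all genes tested that was called in both lines was not counted. The sharing between lines is therefore not shown to be particular to the transporters. Each library pooled oocytes and captured polyadenylated RNA, so the share of oocytes that hold an mRNA, its amount per oocyte and the state of its poly(A) tail cannot be told apart. TMM sets each change relative to the other mRNAs. With scaling by library totals alone, which moved the median of all genes tested by -0.91 in the native line and -0.93 in the sex-converted line, 14 genes were higher and 19 lower in the native line and 12 and 22 in the sex-converted line. Over all 14929 genes tested the native split was then 2488 higher and 7614 lower, beside 4414 and 5327 with TMM. The sex-converted split was 2372 higher and 7785 lower, beside 4374 and 5408 with TMM. Under that scaling the calls of Slc16a1, Slc2a13, Slc1a1, Slc16a11, Slc6a14 and Slc38a2 were lost in both lines, that of Slc16a6 in the sex-converted line and that of Slc2a1 in the native line. The log2 fold changes of these genes were then 0.21 to 0.94, apart from Slc38a2 at 3.07 (adjusted p = 0.0563) in the native and 2.00 (0.159) in the sex-converted line and Slc2a1 at -0.09 in the native line. The same scaling called genes lower that were not called with TMM, among them Slc2a12, Slc7a1 and Slc6a20b in both lines, Slc16a3 and Slc16a7 in the native line and Slc2a1, Slc2a8, Slc7a5 and Slc38a10 in the sex-converted line.

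**Figure D1:**
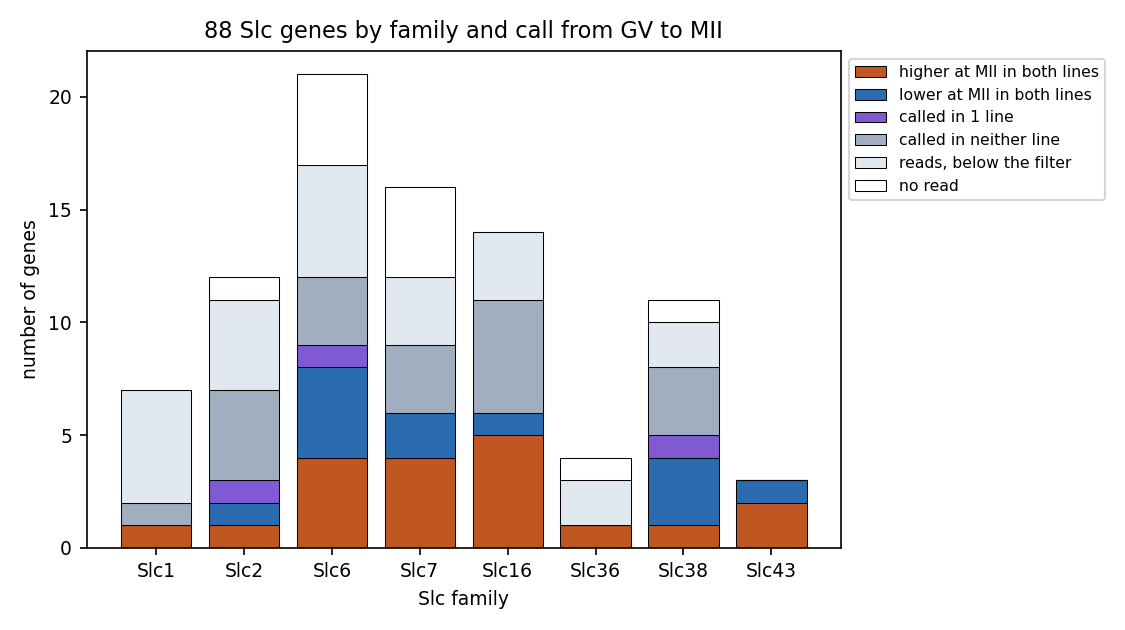
Number of genes in each of the 8 Slc families, stacked by their call from GV to MII (adjusted p under 0.05), with those that did not pass the filter on low counts and those without a read. Slc16 held 5 genes that were higher in both lines and 1 that was lower, while Slc6 held 4 of each and Slc38 1 higher and 3 lower. Of all genes tested 29.6% (native) and 29.3% (sex-converted) were called higher, and 35.7% and 36.2% lower.

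By count the Slc16 family held the most genes that were higher in both lines, while its share of the genes tested was close to that of Slc7. Slc16 (monocarboxylate and aromatic amino acid carriers) had 5 genes higher and 1 lower in both lines of 11 tested, and Slc7 (cationic amino acids, cystine and the large neutral amino acids) had 4 higher, counting Slc7a6os, and 2 lower of 9. Slc6 (sodium- and chloride-dependent carriers of amino acids, osmolytes and amines) had 4 higher and 4 lower in both lines of 12. Slc38 (neutral amino acids) had 1 higher and 3 lower of 8, Slc43 had 2 higher and 1 lower of 3, Slc2 (hexoses and polyols) 1 and 1 of 7, and Slc1 (glutamate and small neutral amino acids) 1 and 0 of 2. Slc36, the proton-coupled carriers, had 1 tested gene, which was higher in both lines. In each line 45.5% of the tested Slc16 genes, 44.4% of Slc7 and 66.7% of Slc43 were higher. The shares over all genes tested were 29.6% (native) and 29.3% (sex-converted) higher, and 35.7% and 36.2% lower. With library totals alone the calls of Slc16a1 and Slc16a11 were lost in both lines, and that of Slc16a6 in the sex-converted line.

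The end of the mRNA was read for the cytoplasmic polyadenylation element, since it is the sequence known to direct poly(A) lengthening at this step. The element was searched as TTTTAT or TTTTAAT on the transcript strand within the last 100 bases of 1 annotated transcript per gene (GENCODE M21 on GRCm38), where TTTTAAT can overlap the poly(A) signal AATAAA. Of the 53 tested genes 11 held it, a share of 20.8%, beside 17.0% over 20724 protein-coding transcripts. The latter include genes that were not tested here, so these shares are not over like sets. In the native line it was held by 10 of the 21 genes higher at MII (47.6%), 1 of the 12 lower (8.33%) and 0 of the 20 not called. The shares over all genes tested with an annotated 3′ end were 32.7%, 10.2% and 16.8% in the same classes. In the sex-converted line the transporter shares were 9 of 19 (47.4%), 1 of 13 (7.69%) and 1 of 21 (4.76%), beside 32.9%, 10.1% and 17.0%. Median annotated 3′ UTR lengths also differed between the classes, at 2228 bases for the transporter genes higher in the native line and 794.5 for those lower, beside 1430 and 674 over all genes, and their part in the shares was not tested. The genes with the element that were higher at MII in both lines were Slc6a14, Slc6a15, Slc6a20a, Slc7a8, Slc16a6, Slc16a11, Slc16a12, Slc36a1 and Slc43a3, and Slc38a4 was higher in the native line alone. The glycine transporter gene Slc6a9 was the one that was lower. A match is a description of letters and not a bound site, and absence says only that these letters are not in the window of the transcript used. Stretches of 30 bases are shown 5′ to 3′ on the transcript strand. They come from 5 of the 6 genes that rose and hold the element beside AATAAA close to the transcript end. The other such gene is Slc16a11. A stretch is also shown for Slc6a9, the 1 of the 12 genes lower in the native line that holds the element, a share close to that of all falling genes. Capitals mark the element and, where present, the poly(A) signal AATAAA.
Slc36a1 (chr11:55236301-55236330, plus strand): cAATAAAtgaaTTTTATtTTTTATttttga
Slc6a20a (chr9:123636128-123636157, minus strand): cttTTTTATcatAATAAAgtggatcaaggt
Slc43a3 (chr2:84958471-84958500, plus strand): tacTTTTATacaatAATAAAgcctctatgt
Slc16a6 (chr11:109450855-109450884, minus strand): ttacAATAAAtttacggctTTTTATctaaa
Slc6a14 (chrX:21742326-21742355, plus strand): AATAAAaaTTTTATatcctgttttcctcac
Slc6a9 (chr4:117869273-117869302, plus strand): aggTTTTAATgaaatttctattcctgtctc
Slc36a1 held 2 copies in its stretch, and the 5 rising genes held AATAAA within it. In Slc6a9 the element was of the longer form and its stretch held no AATAAA. The 3 transporter genes with the highest MII levels, Slc7a11, Slc16a10 and Slc6a6, held no element in the window.

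**Figure D2:**
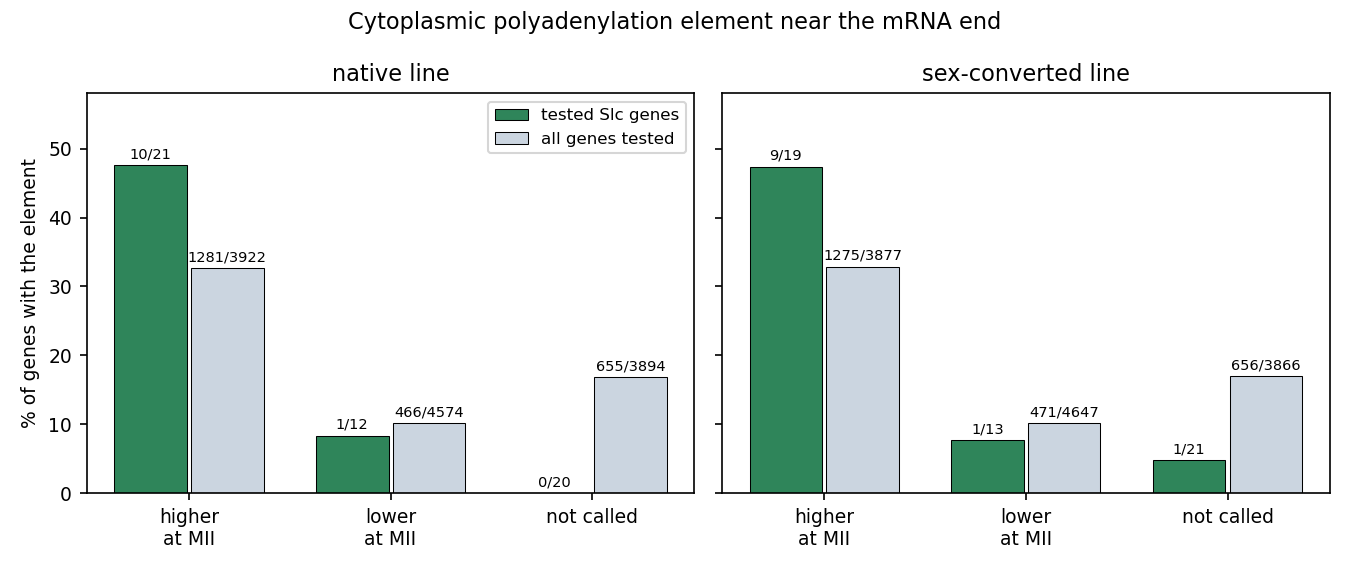
Percent of genes whose annotated mRNA end holds TTTTAT or TTTTAAT in the last 100 bases, for the tested Slc genes (green) and all genes tested with an annotated 3′ end (grey), by call from GV to MII in each line, with counts above the bars. The share was 47.6% (native) and 47.4% (sex-converted) in Slc genes higher at MII, and under 9% in the other Slc classes.

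In the Slc7 family the cystine carrier and a cationic amino acid carrier rose in both lines. Slc7a11, the light chain of the cystine-glutamate antiporter that feeds glutathione synthesis, stood at 125.5 and 126 CPM in the sex-converted GV libraries and 109.7 and 119 in the native ones. In MII eggs Slc7a11 had 971 and 918 CPM in the sex-converted line and 871 and 984 in the native line. All MII libraries were above all GV libraries, with log2 fold changes of 3.02 (SE 0.17, adjusted p = 3.61e-07) in the native line and 2.91 (SE 0.16, adjusted p = 4.63e-07) in the sex-converted line, a rise of 8.12-fold and 7.51-fold. Slc7a11 (chr3:49892526-50443614, minus strand) had the highest MII level of the 88 genes in CPM. Slc7a2, which encodes the cationic amino acid transporter CAT2, had 69.15 and 65 CPM in the sex-converted GV libraries and 67.3 and 62.3 in the native ones. For Slc7a2 the MII libraries stood at 262 and 241 CPM (sex-converted) and 225 and 264 CPM (native), with log2 fold changes of 1.92 (SE 0.18, adjusted p = 5.75e-06) in the native line and 1.91 (SE 0.18, adjusted p = 5.94e-06) in the sex-converted line. Its paralog Slc7a1, the gene of CAT1, was not called in either line and had 29.6 and 20.6 CPM in the sex-converted GV libraries and 21.8 and 29.3 in the native ones. Slc7a1 was at 22.8 and 26.25 CPM in sex-converted and 27.2 and 30.1 CPM in native eggs at MII. GV and MII libraries of Slc7a1 overlapped. With library totals alone it was called lower in both lines, at log2 fold changes of -0.75 (adjusted p = 0.0349) in the native and -0.97 (0.0104) in the sex-converted line.

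Of the large neutral amino acid exchangers of Slc7, the gene of LAT2 rose and that of LAT1 was not called. Slc7a8, the gene of LAT2, rose from 3.70 and 5.21 CPM (sex-converted) and 3.73 and 2.53 CPM (native) at GV to 17.5 and 16.1 CPM and 20.7 and 21.75 CPM at MII. The stages did not overlap, and its log2 fold changes were 2.75 (SE 0.33, adjusted p = 3.06e-05) in the native line and 1.91 (SE 0.32, adjusted p = 0.000329) in the sex-converted line. Slc7a5, the gene of LAT1, had 61.5 and 40 CPM in the sex-converted GV libraries and 30.1 and 55.4 in the native ones. In MII eggs Slc7a5 had 40.2 and 49.2 CPM in the sex-converted line and 68.6 and 58.7 in the native line. The GV and MII libraries overlapped in the sex-converted line and did not in the native line, and neither change was called, with log2 fold changes of 0.58 (adjusted p = 0.126) in the native line and -0.18 (adjusted p = 0.624) in the sex-converted line. Without native GV replicate 2 the native change of Slc7a5 was 1.08 on the log2 scale with an adjusted p of 0.0109, and with library totals alone the sex-converted change was -1.12 with an adjusted p of 0.0116. Slc7a6, the gene of the exchanger y+LAT2, was near the detection limit with 26 and 29 reads in the sex-converted GV libraries and 31 and 10 in the native ones. In MII eggs Slc7a6 had 14 and 4 reads in the sex-converted line and 13 and 7 in the native line, and was not called. Slc7a6os on the other strand beside it (chr8:106200717-106210935, against chr8:106168857-106198706) does not overlap it and went from 127 and 116 CPM (sex-converted) and 121 and 127 CPM (native) at GV to 382 and 398 CPM and 422 and 403 CPM at MII. The stages did not overlap, and its log2 fold changes were 1.73 (SE 0.16, adjusted p = 5.44e-06) in the native line and 1.68 (SE 0.16, adjusted p = 6.62e-06) in the sex-converted line.

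The basolateral and renal exchangers of Slc7 went the other way at low levels. Slc7a7, the gene of y+LAT1, had 37 and 77 reads in the sex-converted GV libraries and 48 and 31 in the native ones. In MII eggs Slc7a7 had 0 and 0 reads in the sex-converted line and 2 and 1 in the native line. Its total fell from 114 reads to 0 in the sex-converted line, at least 20.0-fold lower with a floor of 3 reads over the group (10.7 and 9.31 without MII replicate 1 or 2), and from 79 to 3 in the native line, a ratio of 15.7 with a counting interval of 5.16 to 77.5. Intervals here and below cover counting error only. A change given as at least some fold sets a floor of 3 reads for the group without reads. It takes the reads of the other group as exact, so it is no confidence limit. Slc7a9, the cystine and cationic amino acid exchanger of kidney, fell from 27 reads to 1 (native) and from 50 to 3 (sex-converted), ratios of 16.0 (2.64 to 657) and 8.78 (2.84 to 44.0). The Slc7a9 call was lost in both lines with DESeq2 (adjusted p = 0.0664 and 0.0801) and without any of several single libraries, at adjusted p values up to 0.183 in the native line without native MII replicate 1 (ratio 7.25) and 0.279 in the sex-converted line without sex-converted GV replicate 2 (ratio 4.29). The ratio was 4.08 without sex-converted MII replicate 2, and the fall was at least 2.93-fold without native MII replicate 2 and at least 4.70-fold without sex-converted MII replicate 1. Slc7a7 (chr14:54369442-54417780) and the rising Slc7a8 (chr14:54722209-54781946) lie on the same strand of chromosome 14. Slc7a7 overlaps 232 bases of Oxa1l on the other strand, a gene with 3448 reads in all, and without knowledge of the counting strand their reads in the overlap cannot be told apart. Overlaps here and below are of whole gene spans, introns included, and shared exon bases were not computed.

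**Figure D3:**
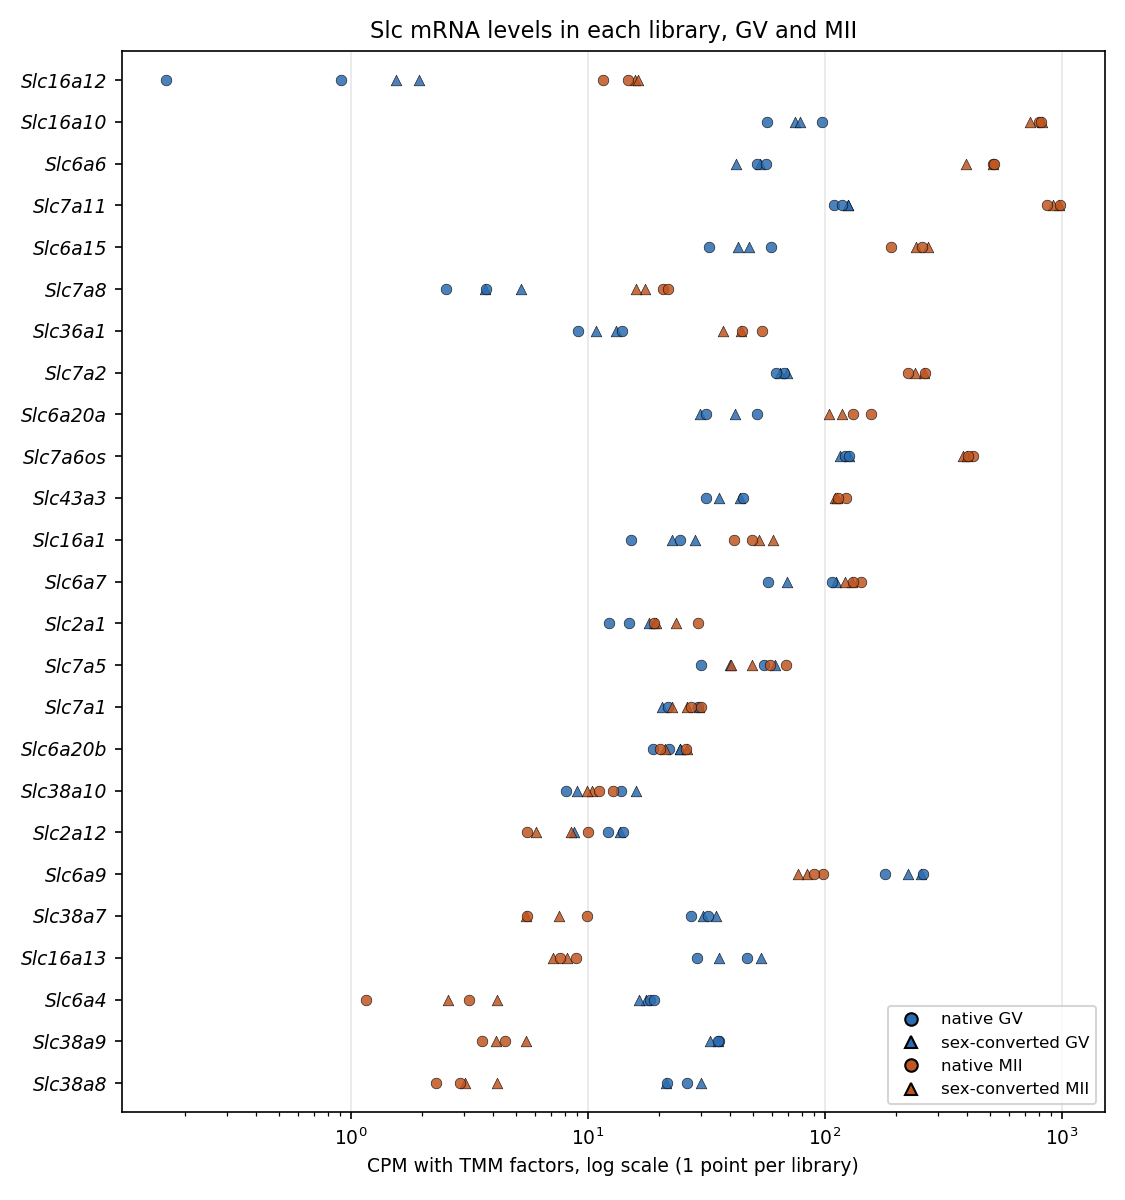
CPM with TMM factors on a log axis for the 25 tested Slc genes whose highest group mean reached 10 CPM, 1 point per library (circles native, triangles sex-converted, blue GV, orange MII), ordered by mean log2 fold change. From Slc16a12 down to Slc16a1 all MII points lie right of all GV points, and from Slc6a9 down to Slc38a8 all lie left.

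In the Slc6 family Slc6a6, Slc6a15, Slc6a20a and Slc6a14 rose in both lines, and Slc6a9, Slc6a4, Slc6a12 and Slc6a21 fell in both. Carriers of organic osmolytes stood on both sides, the taurine carrier Slc6a6 among the first and the glycine and betaine carriers Slc6a9 and Slc6a12 among the second. Slc6a6, the taurine transporter gene, had 53.35 and 42.2 CPM in the sex-converted GV libraries and 52.1 and 56.5 in the native ones. For Slc6a6 the MII libraries stood at 511 and 395 CPM (sex-converted) and 515 and 520.4 CPM (native). That is a rise of 9.53-fold in the native and 9.48-fold in the sex-converted line, with log2 fold changes of 3.25 (SE 0.21, adjusted p = 6.22e-07) and 3.25 (SE 0.21, adjusted p = 6.75e-07). Slc6a15, which encodes a carrier of branched-chain amino acids and proline, had 43.04 and 48.04 CPM in the sex-converted GV libraries and 32.5 and 59.6 in the native ones. Slc6a15 was at 244 and 272 CPM in sex-converted and 191 and 258 CPM in native eggs at MII. All MII libraries were higher, and the log2 fold changes were 2.29 (SE 0.28, adjusted p = 3.44e-05) in the native line and 2.50 (SE 0.28, adjusted p = 1.93e-05) in the sex-converted line. Slc6a20a, the imino acid carrier gene SIT1, rose from 29.7 and 41.8 CPM (sex-converted) and 51.85 and 31.7 CPM (native) at GV to 118 and 105 CPM and 157 and 132 CPM at MII. All GV libraries of Slc6a20a lay apart from all MII libraries, and its log2 fold changes were 1.79 (SE 0.27, adjusted p = 0.000164) and 1.64 (SE 0.27, adjusted p = 0.000297) in the same order.

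Slc6a20b, the neighbouring paralog of Slc6a20a (chr9:123590800-123632565, against chr9:123634770-123678885, both on the minus strand), was not called. It had 24.4 and 24.6 CPM in the sex-converted GV libraries and 22.1 and 18.9 in the native ones. In MII eggs Slc6a20b had 21.1 and 26.15 CPM in the sex-converted line and 20.15 and 25.9 in the native line. The GV and MII ranges overlapped, and the log2 fold changes were 0.16 in the native line and -0.05 in the sex-converted line, neither called. With library totals alone they were -0.74 (adjusted p = 0.0226) and -0.99 (0.00521). Reads that match both paralogs could have been split or dropped, since how reads with several matches were treated is unknown here. Slc6a20a also overlaps 1938 bases of the antisense gene Gm17120, which had 400 reads in all. Slc6a7, the brain proline transporter gene, missed the threshold in both lines with 111 and 69.1 CPM in the sex-converted GV libraries and 57.6 and 107 in the native ones. For Slc6a7 the MII libraries stood at 130.4 and 122 CPM (sex-converted) and 142 and 131 CPM (native). Its log2 fold changes were 0.73 (adjusted p = 0.0501) in the native and 0.49 (adjusted p = 0.17) in the sex-converted line, and without native GV replicate 2 the native change was 1.24 with an adjusted p of 0.00228. All MII libraries of Slc6a7 lay above all GV libraries. The native change of Slc6a7 was called with DESeq2 (adjusted p = 0.0373), the sex-converted one without sex-converted GV replicate 1 (0.88, adjusted p = 0.0434), and both were negative with library totals alone. Slc6a14, the gene of a broad neutral and cationic amino acid carrier on the X chromosome, was higher in both lines, from 0.75 ± 0.431 to 2.61 ± 0.724 CPM in the native line and from 1.84 ± 0.185 to 6.04 ± 1.27 in the sex-converted line (SD, n = 2). The native call of Slc6a14 was lost without native GV replicate 1 (adjusted p = 0.0978) or native MII replicate 2 (adjusted p = 0.079), and its log2 fold change was 2.52 without native GV replicate 2. In the sex-converted line it was not called without MII replicate 2 of that line (adjusted p = 0.0724).

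Slc6a9, the gene of the glycine transporter GLYT1, through which oocytes and early embryos gather glycine as an osmolyte, was the transporter gene with the highest GV level in CPM. It had 254.5 and 226 CPM in the sex-converted GV libraries and 180.3 and 260.0 in the native ones. Slc6a9 was at 84.6 and 77.04 CPM in sex-converted and 98.45 and 90.4 CPM in native eggs at MII. All MII libraries were below all GV libraries, a drop of 2.33-fold in the native and 2.97-fold in the sex-converted line at log2 fold changes of -1.22 (SE 0.21, adjusted p = 0.000389) in the native and -1.57 (SE 0.21, adjusted p = 6.62e-05) in the sex-converted line. The span of Slc6a9 (chr4:117834506-117875198, plus strand) overlaps 5939 bases of that of B4galt2 on the other strand, which had 8388 reads in all. The counts of this pair could be mixed if strand was ignored and their exons overlap, which was not computed. Slc6a4, the serotonin transporter gene, fell from 17.6 and 16.4 CPM (sex-converted) and 18.3 and 19.1 CPM (native) at GV to 4.16 and 2.57 CPM and 3.15 and 1.16 CPM at MII. Its log2 fold changes were -3.08 (SE 0.44, adjusted p = 9.45e-05) in the native line and -2.34 (SE 0.42, adjusted p = 0.000484) in the sex-converted line, and the native one was -4.01 without native MII replicate 1.

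Other Slc6 genes of low level fell as well. Slc6a12, the betaine and GABA transporter gene BGT1, had 54 and 53 reads in the sex-converted GV libraries and 33 and 28 in the native ones. In MII eggs Slc6a12 had 0 and 0 reads in the sex-converted line and 3 and 1 in the native line. In the sex-converted line that is 107 reads against 0, at least 18.8-fold lower at MII (10.1 and 8.73 without MII replicate 1 or 2), and in the native line the log2 fold change was -3.14 (SE 0.74, adjusted p = 0.00394), while without native MII replicate 1 a single MII read is left and the ratio was 16.4 (2.83 to 658). Slc6a13, the GABA and taurine carrier gene GAT2 beside it (chr6:121300227-121337733, against chr6:121343076-121365775, both on the plus strand), had 3 and 15 reads in the sex-converted GV libraries and 8 and 11 in the native ones. In MII eggs Slc6a13 had 0 and 0 reads in the sex-converted line and 1 and 0 in the native line. It was called lower in the sex-converted line alone, with 18 reads against 0, at least 3.16-fold lower (1.69 and 1.47 without sex-converted MII replicate 1 or 2, and 4.79 without sex-converted GV replicate 1), while 19 reads against 1 in the native line gave a ratio of 11.3 (1.80 to 469). The native ratio was 6.19 without native MII replicate 2, and the native fall was at least 1.70-fold without native MII replicate 1. The sex-converted call was lost with DESeq2 (adjusted p = 0.077) and without any one of 5 single libraries (adjusted p up to 0.195 without sex-converted GV replicate 2). Slc6a21 fell from between 5.42 and 8.19 CPM at GV to between 0.328 and 1.15 CPM at MII and was called in both lines. Slc6a3, the dopamine transporter gene, was not called.

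**Figure D4:**
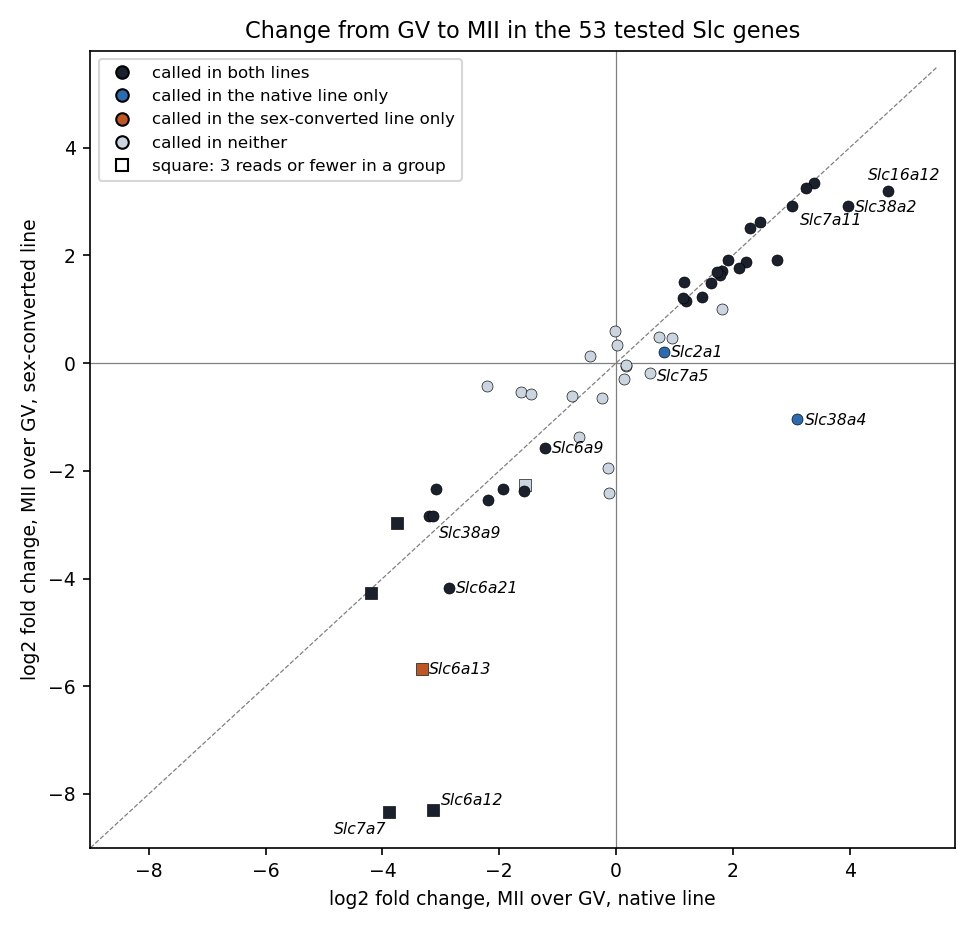
Log2 fold change from GV to MII of the 53 tested Slc genes in the native line (x axis) against the sex-converted line (y axis), coloured by the lines in which the gene was called, with a dashed line of equal change. Squares mark genes with 3 reads or fewer in a group, whose fitted values depend on the prior count and are replaced in the text by reads, ratios or bounds. Slc38a4 stands apart, at 3.11 in the native and -1.04 in the sex-converted line.

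In the Slc16 family the riser with the highest level carries aromatic amino acids. Slc16a10, the gene of TAT1, had 75.2 and 78.9 CPM in the sex-converted GV libraries and 57.4 and 97.6 in the native ones. In MII eggs Slc16a10 had 822 and 736 CPM in the sex-converted line and 799 and 817 in the native line. That is a 10.4-fold (native) and 10.1-fold (sex-converted) rise, with log2 fold changes of 3.38 (SE 0.24, adjusted p = 1.07e-06) and 3.34 (SE 0.24, adjusted p = 1.19e-06). The native GV libraries differed from each other more than the sex-converted ones, and all MII libraries were above all GV libraries. Slc16a12, a creatine carrier gene, had 1.55 and 1.95 CPM in the sex-converted GV libraries and 0.167 and 0.915 in the native ones. For Slc16a12 the MII libraries stood at 15.9 and 16.3 CPM (sex-converted) and 11.65 and 14.8 CPM (native). It rose in both lines, by 4.66 (SE 0.56, adjusted p = 2.75e-05) and 3.19 (SE 0.48, adjusted p = 0.000152) on the log2 scale in the native and sex-converted lines, and the native value was 3.87 without native GV replicate 1 and 6.23 without native GV replicate 2, which leaves 3 reads at GV and a ratio of 78.3 (26.5 to 382).

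Of the lactate and pyruvate carriers, the gene of MCT1 rose with TMM scaling and those of MCT2 and MCT4 were not called. Slc16a1, the gene of MCT1, had 28.4 and 22.6 CPM in the sex-converted GV libraries and 15.2 and 24.55 in the native ones. Slc16a1 was at 60.65 and 52.8 CPM in sex-converted and 49.5 and 41.5 CPM in native eggs at MII. All MII libraries were higher, with log2 fold changes of 1.20 (SE 0.28, adjusted p = 0.00273) in the native line and 1.15 (SE 0.27, adjusted p = 0.00325) in the sex-converted line, which were 0.28 and 0.21 and not called with library totals alone. Slc16a7, the gene of the high-affinity pyruvate carrier MCT2, had 1.19 and 1.27 CPM in the sex-converted GV libraries and 0.613 and 0.844 in the native ones. In MII eggs Slc16a7 had 1.095 and 0.571 CPM in the sex-converted line and 0.382 and 0.116 in the native line. Slc16a3, the gene of the lactate exporter MCT4, had 1.01 and 0.341 CPM in the sex-converted GV libraries and 1.00 and 0.633 in the native ones. For Slc16a3 the MII libraries stood at 0.438 and 0.4755 CPM (sex-converted) and 0.2865 and 0.231 CPM (native). Neither was called, and both were under 1.3 CPM in every library. With library totals alone both were called lower in the native line, at -2.35 for Slc16a7 (adjusted p = 0.0284) and -2.51 for Slc16a3 (0.0295). Slc16a13 fell from 53.7 and 35.7 CPM (sex-converted) and 29.1 and 46.9 CPM (native) at GV to 8.21 and 7.13 CPM and 8.98 and 7.64 CPM at MII. The stages did not overlap, and its log2 fold changes were -2.19 (SE 0.32, adjusted p = 0.00013) and -2.54 (SE 0.33, adjusted p = 4.67e-05). Its neighbour Slc16a11 on the other strand (chr11:70212752-70216417, against chr11:70216789-70221064) went the other way, from between 1.67 and 2.14 CPM at GV to between 4.27 and 4.97 CPM at MII, and was called higher in both lines. The sex-converted call of Slc16a11 was lost without sex-converted GV replicate 1 (adjusted p = 0.0905) or sex-converted MII replicate 2 (0.0898), and with no filter on low counts (0.0567). Slc16a6, a ketone body carrier gene, rose from between 1.01 and 2.32 CPM at GV to between 3.39 and 9.03 CPM at MII in both lines, with a native log2 fold change of 2.23 that was 2.83 without native GV replicate 2. Slc16a6 overlaps 1959 bases of Amz2 on the other strand, which had 5154 reads in all. Slc16a4, Slc16a5 and Slc16a9 were not called.

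Of the Slc2 genes none reached 30 CPM. Slc2a1, the gene of the glucose transporter GLUT1, had 19.02 and 18.2 CPM in the sex-converted GV libraries and 14.9 and 12.3 in the native ones. Slc2a1 was at 19.5 and 23.7 CPM in sex-converted and 29.1 and 18.98 CPM in native eggs at MII. It was called higher in the native line with a log2 fold change of 0.82 (SE 0.28, adjusted p = 0.0253) and not in the sex-converted line, where it was 0.21 (SE 0.28, adjusted p = 0.519). The difference between these changes was not called (interaction -0.61, unadjusted p = 0.158). The native call was lost without native GV replicate 2 (adjusted p = 0.115) or native MII replicate 1 (0.249), with no filter on low counts (0.072) and with only the groups compared (0.0506). With library totals alone the log2 fold changes were -0.09 in the native and -0.72 (adjusted p = 0.0387) in the sex-converted line. Slc2a3, the gene of GLUT3, had 0 and 9 reads in the sex-converted GV libraries and 2 and 11 in the native ones. In MII eggs Slc2a3 had 8 and 1 reads in the sex-converted line and 21 and 9 in the native line. Slc2a8, the gene of GLUT8, had 23 and 19 reads in the sex-converted GV libraries and 5 and 12 in the native ones. In MII eggs Slc2a8 had 4 and 0 reads in the sex-converted line and 9 and 1 in the native line. Neither was called. In CPM the native MII libraries of Slc2a3 (2.005 and 1.04) were both above the native GV libraries (0.111 and 0.774), and the stages overlapped in the sex-converted line. For Slc2a8 the MII libraries were both lower in the sex-converted line and overlapped GV in the native line. The sex-converted fall of Slc2a8 was called with library totals alone (adjusted p = 0.0304), with no filter on low counts (0.0482), with only the groups compared (0.0471) and without sex-converted MII replicate 1 (0.0364).

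Slc2a12, the gene of GLUT12, was not called and had 13.65 and 8.72 CPM in the sex-converted GV libraries and 12.1 and 14.1 in the native ones. In MII eggs Slc2a12 had 8.54 and 6.09 CPM in the sex-converted line and 5.54 and 10.1 in the native line. It was called lower with library totals alone, at -1.66 (adjusted p = 0.00343) in the native and -1.56 (0.00503) in the sex-converted line, and in the native line without native MII replicate 2 (-1.27, adjusted p = 0.0358). Slc2a12 overlaps 407 bases of Tbpl1 on the other strand, with 2816 reads in all. Slc2a13, the proton-coupled myo-inositol carrier gene, rose from between 2.38 and 4.79 CPM at GV to between 7.26 and 12.6 CPM at MII in both lines, with calls that were lost without native GV replicate 1 (adjusted p = 0.0564), native GV replicate 2 (0.111) or native MII replicate 2 (0.248) in the native line, and without sex-converted GV replicate 1 (0.071) or sex-converted MII replicate 2 (0.0591) in the other. Slc2a9, a urate carrier gene, fell from between 3.73 and 6.915 CPM at GV to between 0.761 and 1.85 CPM at MII, and its native call was lost without native GV replicate 1 (0.0969) or native MII replicate 1 (0.1105). Slc2a10 was not called.

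Among carriers that work at the lysosome, the genes of an arginine sensor and a glutamine exporter fell and that of a proton-coupled carrier rose. Slc38a9, the lysosomal arginine sensor that signals to mTORC1, had 32.96 and 35.4 CPM in the sex-converted GV libraries and 35.7 and 35.4 in the native ones. For Slc38a9 the MII libraries stood at 5.47 and 4.09 CPM (sex-converted) and 4.49 and 3.59 CPM (native). It fell 8.75-fold in the native and 7.16-fold in the sex-converted line, with log2 fold changes of -3.13 (SE 0.29, adjusted p = 4.40e-06) and -2.84 (SE 0.28, adjusted p = 7.61e-06) and no overlap between stages. Slc38a7, which exports glutamine from lysosomes, fell from 34.9 and 30.7 CPM (sex-converted) and 27.3 and 32.3 CPM (native) at GV to 7.55 and 5.52 CPM and 9.93 and 5.55 CPM at MII. The stages did not overlap, and its log2 fold changes were -1.94 (SE 0.32, adjusted p = 0.000315) in the native and -2.33 (SE 0.33, adjusted p = 9.19e-05) in the sex-converted line. Slc36a1, the gene of the proton-coupled amino acid carrier PAT1 of lysosomes and plasma membrane, instead had 10.85 and 13.2 CPM in the sex-converted GV libraries and 9.13 and 14 in the native ones. Slc36a1 was at 37.2 and 44.3 CPM in sex-converted and 44.9 and 54.2 CPM in native eggs at MII. Its log2 fold changes were 2.1 (SE 0.28, adjusted p = 6.51e-05) and 1.76 (SE 0.28, adjusted p = 0.000213), and it carries the doubled element printed above.

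The other Slc38 genes, carriers of glutamine and small neutral amino acids, were low apart from Slc38a8 and Slc38a10. Slc38a8 fell from 30.1 and 21.4 CPM (sex-converted) and 21.6 and 26.2 CPM (native) at GV to 4.16 and 3.04 CPM and 2.29 and 2.89 CPM at MII. All GV libraries of Slc38a8 lay apart from all MII libraries, and its log2 fold changes were -3.21 (SE 0.34, adjusted p = 1.30e-05) and -2.84 (SE 0.33, adjusted p = 2.37e-05) in the native and sex-converted lines. Slc38a10 had 15.98 and 9.06 CPM in the sex-converted GV libraries and 8.075 and 13.9 in the native ones. In MII eggs Slc38a10 had 10.4 and 9.99 CPM in the sex-converted line and 12.8 and 11.2 in the native line and was not called, except in the sex-converted line with library totals alone (-1.24, adjusted p = 0.0144). Slc38a3, which cumulus cells are known to express for the oocyte, had no read in any library, so that at most 3 reads are allowed in each. Slc38a1 and Slc38a6 were not called.

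Slc38a2, the gene of the carrier SNAT2, had 4 and 6 reads in the sex-converted GV libraries and 0 and 5 in the native ones. In MII eggs Slc38a2 had 33 and 6 reads in the sex-converted line and 46 and 8 in the native line. It was called higher in both lines, with log2 fold changes of 3.98 (SE 1.26, adjusted p = 0.0167) in the native line and 2.91 (SE 1.17, adjusted p = 0.0463) in the sex-converted line, but replicate 1 of each MII group held most of the reads. Those are also the MII libraries with the higher Vim and stromal sums given above. Without native MII replicate 1 the native value was 2.43 (adjusted p = 0.195), and without sex-converted MII replicate 1 the sex-converted value was 1.07 (adjusted p = 0.547). The native call was also lost without native GV replicate 1 (0.0751), which holds no read of the gene, and its value was 4.66 without native MII replicate 2. Without native GV replicate 2 no GV read is left and the level was at least 16.9-fold higher at MII. The sex-converted call was also lost without either GV library of that line (0.12 and 0.103), and its value was 3.72 without sex-converted MII replicate 2.

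Slc43a3, which encodes a purine nucleobase carrier, rose from 35.7 and 44 CPM (sex-converted) and 45.05 and 31.6 CPM (native) at GV to 111 and 113 CPM and 123 and 114 CPM at MII. The stages did not overlap, and its log2 fold changes were 1.63 (SE 0.23, adjusted p = 9.13e-05) in the native line and 1.49 (SE 0.23, adjusted p = 0.000167) in the sex-converted line. Slc43a2, the gene of the large neutral amino acid carrier LAT4, rose from between 0.4455 and 1.13 CPM at GV to between 3.59 and 4.97 CPM at MII, by 2.46 and 2.62 on the log2 scale, or 3.23 in the native line without native GV replicate 2. Slc43a1, the gene of LAT3, fell. It went from 67 reads to 2 in the native line, a ratio of 19.9 (5.30 to 168), and from 82 to 2 in the sex-converted line, a ratio of 21.6 (5.79 to 181). Both sex-converted MII reads were in replicate 1, and the ratio was 10.0 without replicate 2, while without replicate 1 the fall was at least 7.71-fold. Slc43a1 and the rising Slc43a3 lie close together on the plus strand of chromosome 2 (chr2:84838850-84863594 and chr2:84936579-84958509).

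Slc1a1, the gene of the glutamate and cysteine carrier EAAT3, had 1.01 and 1.85 CPM in the sex-converted GV libraries and 2.12 and 3.025 in the native ones. For Slc1a1 the MII libraries stood at 2.52 and 4.185 CPM (sex-converted) and 6.30 and 5.09 CPM (native). The stages did not overlap within a line, and it was called higher in both lines at log2 fold changes of 1.15 (SE 0.47, adjusted p = 0.048) in the native and 1.22 (SE 0.49, adjusted p = 0.0456) in the sex-converted line close to the threshold. The call was lost in both lines with DESeq2 (adjusted p = 0.0814 and 0.0716) and with no filter on low counts (0.0926 and 0.0709), in the sex-converted line with only the groups compared (0.0691), and, for 1 line or both, without any one of 7 libraries, at adjusted p values up to 0.2 in the native line without native GV replicate 1 and 0.2905 in the sex-converted line without sex-converted MII replicate 2. Slc1a4, the gene of the neutral amino acid exchanger ASCT1, had 26 and 1 reads in the sex-converted GV libraries and 11 and 0 in the native ones. In MII eggs Slc1a4 had 3 and 0 reads in the sex-converted line and 2 and 0 in the native line and was not called. Slc1a1 overlaps 4430402I18Rik on the other strand, which had 144 reads.

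The 24 genes with reads below the filter had at most 14 reads in a library and 35 in total. They included Slc1a2, Slc1a3, Slc1a5, Slc1a6, Slc1a7, Slc2a2, Slc2a4, Slc2a5, Slc2a6, Slc6a5, Slc6a8, Slc6a11, Slc6a16, Slc6a17, Slc7a3, Slc7a4, Slc7a14, Slc16a8, Slc16a14, Slc36a2, Slc36a4, Slc38a5 and Slc38a11. Among them are the insulin-responsive glucose transporter gene Slc2a4 with 22 reads, the creatine transporter gene Slc6a8 with 25, the glycine transporter gene Slc6a5 with 18 and the glutamine exchanger gene Slc1a5 with 30, each over all 8 libraries. The genes without a read included, besides Slc38a3, Slc2a7, Slc6a2, Slc6a18, Slc6a19, Slc7a10, Slc7a12, Slc7a13, Slc7a15 and Slc36a3. Slc6a19 and Slc6a18 are neutral amino acid carriers of kidney and gut, and Slc6a2 is the noradrenaline transporter of neurons.

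Levels can be compared between genes only per length, here as CPM per kilobase of annotated exon (groups' means over 2 libraries). At GV Slc6a9 led with 46.7 in the sex-converted line and 42.8 in the native line, and its range over the 4 libraries, 35.1 to 50.6, lay above that of the other 87 genes. Slc7a6os apart, it was followed by Slc6a7 (26.2 and 23.9), Slc16a13 (17.2 and 14.6), Slc7a5 (13.7 and 11.5) and Slc16a10 (10.5 and 10.5), whose library ranges each overlapped the next. At MII the order was Slc16a10 (106 and 109.8), Slc7a11 (67.8 and 66.6), Slc6a6 (53.55 and 61.2) and Slc6a7 (36.7 and 39.6), again leaving out Slc7a6os. In that order the 4 libraries of Slc16a10 (100.0 to 112), Slc7a11 (62.5 to 70.7), Slc6a6 (46.7 to 61.5) and Slc6a7 (35.5 to 41.15) did not overlap from one gene to the next. Slc6a20a (25.6 to 38.35) and Slc6a15 (24.6 to 35.04) came next and overlapped each other, and the range of Slc6a20a also overlapped that of Slc6a7. Slc6a9 was then at 15.7 and 18.4. By this measure the glycine transporter gene led the carriers at GV, and the genes of carriers of aromatic amino acids, cystine and taurine led at MII. The length used joins all annotated exons of a gene, and the transcripts present in these oocytes may be shorter. The ranges hold the spread between libraries only, so the order could differ with other lengths.

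No transporter gene was called between the lines. Of the 53 genes 0 were called between sex-converted and native oocytes at GV and 0 at MII in edgeR's quasi-likelihood test, where 0.0134% of all genes tested were called at each stage, 0.0067% in each direction. In the line by stage interaction 0 were called, and the share over all genes was 0.0%. DESeq2 called 0 in each of the 3 comparisons too. Unadjusted p values fell under 0.05 for 3 genes at GV, 5 at MII and 3 in the interaction, none with an adjusted p under 1. For Slc7a11 the log2 fold change of sex-converted over native was 0.14 at GV (95% interval -0.20 to 0.48) and 0.03 at MII (-0.31 to 0.36). For Slc16a10 it was -0.01 (-0.50 to 0.49) and -0.05 (-0.54 to 0.44), for Slc6a6 -0.18 (-0.61 to 0.24) and -0.19 (-0.61 to 0.22), and for Slc6a9 0.13 (-0.33 to 0.58) and -0.22 (-0.68 to 0.24). A missing call does not show equal levels, and the intervals give the size of difference these libraries leave possible.

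**Figure D5:**
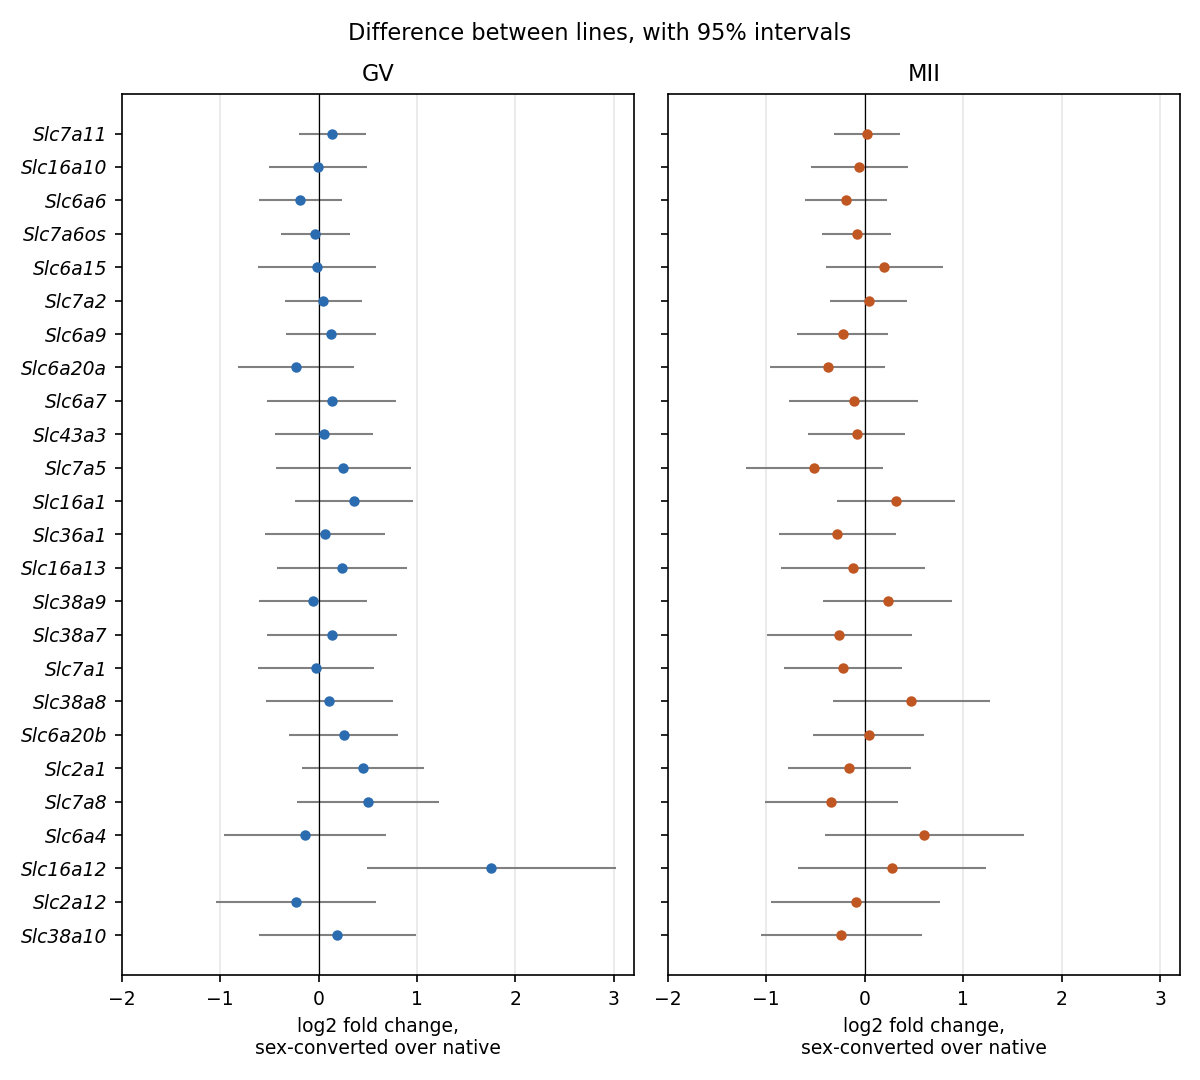
Log2 fold change of sex-converted over native oocytes at GV (left) and MII (right) for the same 25 genes, with 95% intervals as bars, ordered by level. No gene was called, and the interval of Slc16a12 at GV, 0.49 to 3.02, is the one that leaves out 0.

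The genes with the smallest unadjusted p between lines were of low level. Slc16a12 at GV was 1.75 on the log2 scale (unadjusted p = 0.0109, adjusted p = 1), with 26 and 40 reads in the sex-converted and 3 and 13 in the native libraries. Slc6a14 was 1.31 at GV (unadjusted p = 0.0332) and 1.22 at MII (unadjusted p = 0.0321), with every sex-converted library above every native library of the same stage. Slc6a12, Slc16a5 and Slc16a6 at MII went the other way. Slc6a12 had 3 and 1 reads in native eggs and 0 in both sex-converted libraries (unadjusted p = 0.0286). With a floor of 3 reads for the latter the ratio was 1.37, and it was under 1 without either sex-converted MII library. That ratio takes the 4 native reads as exact, so it does not show a lower level in the sex-converted line. Slc16a5 was -1.20 (unadjusted p = 0.0292), with 2.63 and 1.90 CPM in the sex-converted and 6.21 and 4.17 in the native eggs. Slc16a6 was -1.02 (unadjusted p = 0.0425), with 3.39 and 4.47 CPM against 6.97 and 9.03. Slc38a4, the gene of the carrier SNAT4, which is expressed from the paternal allele in mouse placenta, had 10 and 14 reads in the sex-converted GV libraries and 3 and 2 in the native ones. In MII eggs Slc38a4 had 3 and 3 reads in the sex-converted line and 16 and 11 in the native line. It was 1.99 at GV (unadjusted p = 0.0332) and -2.16 at MII (unadjusted p = 0.0203), so that the sex-converted libraries were the higher ones at GV and the lower ones at MII. Its rise in the native line, 3.11 (SE 0.81, adjusted p = 0.0059), was not called without native GV replicate 1 (adjusted p = 0.0502) or native GV replicate 2 (0.0576). At GV the sex-converted libraries were both higher for 10 genes (18.9%) and both lower for 3 (5.66%), where 12.5% and 11.0% of all genes tested did so. At MII this held for 7 (13.2%) and 19 (35.8%), where the shares over all genes were 15.1% and 15.9%. These comparisons share libraries with those between stages.

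Among the genes of carrier partners and regulators, those of the heavy chain Slc3a2 and of embigin rose and that of basigin was not called. Of 10 such genes, all tested, 4 were higher and 2 lower in each line, beside 29.6% (native) and 29.3% (sex-converted) higher and 35.7% and 36.2% lower over all genes tested. Slc3a2, the heavy chain that pairs with Slc7a11, Slc7a5, Slc7a6, Slc7a7 and Slc7a8, had 101 and 124 CPM in the sex-converted GV libraries and 121 and 122 in the native ones. Slc3a2 was at 371 and 373 CPM in sex-converted and 493 and 385 CPM in native eggs at MII, with log2 fold changes of 1.85 in the native line and 1.73 in the sex-converted line. Emb, the embigin gene, rose from between 15.6 and 26.3 CPM at GV to between 57.96 and 72.15 CPM at MII, whereas Bsg, the basigin gene, was not called at 59.6 to 75.6 CPM at GV and 59.6 to 79.7 at MII. Nedd4l, a ubiquitin ligase that acts on several carriers, rose from between 124 and 145 CPM at GV to between 251 and 301 CPM at MII, and Txnip, which lowers glucose uptake, was called lower in the native line alone (log2 fold change -0.59, against -0.30 in the other).

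Other carriers of the same substrates also moved in both directions, with 8 of 18 tested genes of a list of 23 higher in each line (44.4%) and 5 (native, 27.8%) or 6 (sex-converted, 33.3%) lower. Over all genes tested 29.6% and 29.3% were higher and 35.7% and 36.2% lower. Slc45a3 was the most abundant, at 1795 and 1084 CPM in the sex-converted GV libraries and 835 and 2086 in the native ones. In MII eggs Slc45a3 had 6479 and 5514 CPM in the sex-converted line and 6933 and 6621 in the native line, and rose by 2.21 and 2.06 on the log2 scale. Slc45a3 is a sugar carrier, and its libraries did not overlap between stages. Slc15a4, a lysosomal histidine and peptide carrier gene, fell by 1.85 and 2.33 on the log2 scale. The mitochondrial pyruvate carrier is built of Mpc1 and Mpc2, and their mRNAs went opposite ways, Mpc1 from between 1.17 and 3.22 CPM at GV to between 6.94 and 11.1 CPM at MII and Mpc2 from between 16.9 and 27.4 CPM at GV to between 4.375 and 7.64 CPM at MII.

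Genes of amino acid sensing at the lysosome, the machinery that Slc38a9 feeds, were more often higher at MII than lower. Of 20 genes, all tested, 12 were higher in each line and 4 (native) or 5 (sex-converted) lower, beside 29.6% and 29.3% higher and 35.7% and 36.2% lower over all genes tested. Their median log2 fold changes were 1.18 and 1.23, beside -0.31 and -0.35. Rragc, a Rag GTPase that binds mTORC1, rose from between 492 and 553 CPM at GV to between 2480 and 2558 CPM at MII, and Flcn, the folliculin gene that acts on it, from between 50.4 and 75.8 CPM at GV to between 352 and 399 CPM at MII. Subunits of the Ragulator scaffold fell with Slc38a9, Lamtor4 by 4.18 and Lamtor5 by 3.74 on the log2 scale in the native line, while Lamtor3 rose by 1.79. Of 12 tested genes of the amino acid response 4 were higher in each line and 5 (native) or 6 (sex-converted) lower, beside the same shares over all genes, with medians of -1.12 and -1.83. Atf4, the transcription factor of that response, under which Slc7a11 is known to be induced in other cells, fell from between 125 and 141.5 CPM at GV to between 15.97 and 35.7 CPM at MII, while Eif2ak4, the kinase that senses uncharged tRNA, rose from between 87.03 and 115 CPM at GV to between 361 and 404 CPM at MII.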

How the data were processed

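PolyA+ RNA of 8 pooled oocyte libraries, sequenced as 75-base single reads, was analysed from the raw read counts per gene that the authors deposited. Per the submitters' processing notes, Trimmomatic 0.38, HISAT2 2.1.0, featureCounts 2.0.0 and DESeq2 1.30.1 were used with mm10. For strand, reads with several matches and annotation release: not given in the sources used here. Of the 55385 gene names, 55144 matched GENCODE M21, and 241 (0.00326% of reads) did not. Genes were tested across all 4 groups in 1 fit with edgeR 4.0.16 in R 4.3.3 (TMM, filterByExpr with a minimum count of 10, quasi-likelihood F test, Benjamini-Hochberg adjustment over 14929 genes, 4 residual degrees of freedom). Standard errors are approximate, from the fold change and its F. CPM uses TMM factors. The p-values measure the spread between libraries of 1 line each, which may in part be technical. The member genes, lists and tests were chosen with earlier results of these data known. Genes with a group mean of at least 10 CPM and 15 chosen by role are given library by library, and the others by ranges and counts. Alternatives were RLE size factors, library totals, DESeq2 1.42.0, other filters, only the groups compared, a replicate block and each library left out. A planned comparison of protein sequences was not made, and a few genes without a test are counted but not reported by name here. The fit was tested on simulated counts.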

Additional observations from a re-analysis of the deposited data

Results flagged for a closer look

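Slc38a4, the gene of a carrier of small neutral amino acids, changed differently from GV to MII in the lines. The sex-converted minus native difference of the log2 fold changes was -4.149 (SE 1.14), tested as the line by stage interaction in edgeR's quasi-likelihood fit, with an unadjusted p of 0.00394 and an adjusted p of 1. It was marked because both MII libraries lay above both GV libraries in the native line and below both in the sex-converted line. No p-value entered that choice, and the unadjusted p is that of a gene picked for this pattern. The interaction does not pass the correction over all genes tested. The gene had at most 16 reads in a library, and its counts are given above.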

How the results depend on the processing

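The alternatives changed the counts of calls mainly through scaling and filtering. With library totals only, 19 genes were lower in the native line, and 12 were higher and 22 lower in the sex-converted line. Of all 14929 genes tested, 7614 were then lower in the native line, and 2372 were higher and 7785 lower in the sex-converted line. With a mean of at least 50 reads, which tests fewer genes, 7 were lower in each line. Leaving out each library in turn gave 16 to 22 higher and 10 to 13 lower in the native line and 15 to 19 higher and 11 to 14 lower in the sex-converted line. The counts between lines and in the interaction were 0 under each alternative run, and the interaction was not run for only the groups compared. Signs turned only for genes that were not called or, for Slc2a1, called in 1 line, and the cause was not tested. With library totals only, log2 fold changes were -0.1884 (native) and -0.4567 (sex-converted) for Slc6a7, -0.3434 for Slc7a5, -0.7501 (adjusted p = 0.0349) for Slc7a1, -0.7424 for Slc6a20b and -0.7821 for Slc38a10 (native), and -0.08953 (native) and -0.7226 (sex-converted) for Slc2a1. With RLE they were 0.01967 for Slc7a1 and 0.0007607 for Slc6a20b (sex-converted). Leaving out single libraries gave -0.4252 to 0.1673 for Slc7a5 (sex-converted), -0.009438 to 0.391 (native) and -0.239 to 0.2575 (sex-converted) for Slc7a1, -0.05326 to 0.3254 and -0.2134 to 0.09029 for Slc6a20b, -0.1853 to 0.5674 and -0.6154 to 0.1749 for Slc38a10, -0.7464 to 0.5622 and -1.94 to 0.05002 for Slc7a6, -2.177 to 0.8073 for Slc2a8 (native), and -1.098 to 0.4196 for Slc16a3 and -1.202 to 5.606 for Slc2a3 (sex-converted).

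With the replicate number as a block, 21 genes were higher and 11 lower in the native line, 17 and 11 in the sex-converted line, and 0 were called between lines or in the interaction. Of the named genes, those no longer called under the block were Slc7a9 in both lines (log2 fold change -3.774, adjusted p = 0.0539, native; -2.908, 0.0712, sex-converted) and, in the sex-converted line, Slc38a2 (2.61, 0.0806), Slc6a13 (-5.598, 0.0528) and Slc1a1 (1.224, 0.0527). No label says that a number marks a shared culture, and the deviations of same-numbered libraries from their group means correlated at -0.443 between the GV groups, 0.171 between the MII groups and -0.0617 to 0.0843 otherwise. With the GV numbers crossed, an alternative chosen after seeing the data, 0 genes were called between lines at GV. Genes with few reads limit what can be seen: 28 of the 53 had group means under 10 CPM.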

Other observations

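Over all genes tested the GV libraries of the 2 lines deviated together with unlike replicate numbers. For the transporter genes the share was near that of all genes in the first pattern below and lower in the second. Of the 53 tested transporter genes, 19 (35.8%) were higher in both sex-converted GV replicate 1 and native GV replicate 2 than in the other GV library of the same line, beside 35.1% of all genes tested, and 10 (18.9%) were higher in both of the others, beside 36.2%.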
